A study of Mus musculus with 8 samples.

Results

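The genes described are cytokine genes of the Th17 effector programme: Il17a, Il17f, Il21, Il22, Il24, Csf2, Il3 and Il10. A gene was taken if the array platform's gene table gave at least 1 probe set (the group of probes that reads 1 transcript) to its symbol alone, which held for 7 of the 8 genes, each with 1 probe set, among 21789 probe sets with 1 symbol and 35556 in all. Il22 was left out, because both of its probe sets were also assigned to the near-identical copy Iltifb. RNA came from mouse CD4 T cells, labelled Th17 cells on all 8 arrays, and the 4 groups held 2 biological replicates each. In the SRC-3 experiment, cells from mice labelled SRC-3 (f/f) and given the genotype SRC-3 deficient were set beside cells from SRC-3 wild-type mice. In the RORγt experiment, cells from RORgt (-/-) mice were set beside wild-type cells of that experiment. The labels name no Cre driver for the SRC-3 (f/f) mice and no strain or age. Their protocol describes naive CD4+ cells activated through CD3 and CD28 and differentiated with IL-1, IL-6 and IL-23, a condition called pathogenic Th17, and names only SRC-3-deficient and wild-type cells. The labels call the replicates biological but name no mouse for any array. Xist, which differs with the sex of the mice, had log2 signals of 7.10 and 13.60 in the SRC-3-deficient replicates. These 2 arrays therefore came from different mice. For the other groups the mouse behind each replicate is not known, and their spread may be technical. The p-values here measure only the spread between these samples.

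Th17 cells are helper T cells that guard mucosal surfaces against bacteria and fungi and drive tissue inflammation in several autoimmune models. IL-17A and IL-17F, their defining products, signal through IL-17RA and IL-17RC on epithelial and stromal cells, which answer with chemokines and antimicrobial peptides. The nuclear receptor RORγt directs this fate, and SRC-3 is a coactivator that nuclear receptors can recruit to chromatin. IL-21 sustains Th17 and follicular helper cells and acts on B cells, GM-CSF, the product of Csf2, activates myeloid cells, and IL-10 restrains inflammation.

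Values are log2 signals, a level on the array after the authors' normalization, and every fold change is a difference of such levels, deficient minus wild type. Tests were made with limma over the whole table, and a gene was called at an adjusted p under 0.05. Array medians over all probe sets lay between 7.76 and 7.93, and the 2 arrays of a group correlated across 11128 genes with r between 0.989 and 0.997. Ncoa3, the gene of SRC-3, had log2 signals of 11.15 and 10.97 in SRC-3-deficient cells against 11.76 and 11.53 in the wild type (limma adjusted p = 0.0567). All 7 measured CD4 T cell markers reached the filter value of 7.85 (the median of all deposited values) on every array, and their summed log2 signal lay between 15.73 and 15.93. The 5 measured Th17 markers were Il23r, Ccr6, Ccl20 and, from the cytokine genes themselves, Il17a and Il17f. Of them, 4 or 5 reached the filter value on every array of the other 3 groups and 3 on each RORγt-deficient array. Without RORγt 4 of the 5 were called lower and 1, Ccl20, was called higher, beside 9.37% and 10% of all genes. Of the 7 measured B cell markers, at most 2 reached the filter value on any array. Their summed log2 level was 10.78 and 10.83 without RORγt against 11.73 and 11.84 with it, and Ebf1 fell without RORγt (log2 fold change −1.33, limma adjusted p = 0.0131). On the SRC-3 arrays the summed level of the B cell markers lay between 10.51 and 10.99. Among the 8 measured NK and innate lymphoid markers, Klrd1 (1.90) and Gata3 (0.86) rose and Id2 (−0.37) fell without RORγt, while Ncr1 and Klrb1c stayed below the filter value in both groups. The 10 measured myeloid, 8 mast cell and 5 CD8 T cell markers held no call, with at most 1, 0 and 2 of them at the filter value. Whether cells of other types had a part in the cytokine values was not tested, and in bulk RNA fewer cells of a type and less RNA per cell cannot be told apart.

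The 250 bases upstream of the annotated transcription starts are shown for the neighbouring genes Il17a and Il17f, which had the most negative log2 fold changes of the 7 cytokine genes without RORγt, and for the neighbours Csf2 and Il3, of which Csf2 fell and Il3 was not called. They are RefSeq sequences of build GRCm38.p6, 5′ to 3′ on the gene's strand, and capitals mark the letters AGGTCA, the core that ROR receptors and other nuclear receptors are known to bind, or its reverse complement.
Il17a, chr1:20730655-20730904, plus strand: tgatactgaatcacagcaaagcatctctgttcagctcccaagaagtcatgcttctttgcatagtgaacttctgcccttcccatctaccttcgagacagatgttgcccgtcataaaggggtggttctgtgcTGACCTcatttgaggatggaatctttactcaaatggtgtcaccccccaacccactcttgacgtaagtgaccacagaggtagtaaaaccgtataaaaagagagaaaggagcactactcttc
Il17f, chr1:20784271-20784520, minus strand: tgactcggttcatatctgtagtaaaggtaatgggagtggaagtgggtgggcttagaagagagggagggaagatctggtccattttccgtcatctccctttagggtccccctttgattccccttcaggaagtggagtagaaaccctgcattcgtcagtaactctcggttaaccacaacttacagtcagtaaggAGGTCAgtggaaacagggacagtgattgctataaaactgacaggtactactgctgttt
Csf2, chr11:54249900-54250149, minus strand: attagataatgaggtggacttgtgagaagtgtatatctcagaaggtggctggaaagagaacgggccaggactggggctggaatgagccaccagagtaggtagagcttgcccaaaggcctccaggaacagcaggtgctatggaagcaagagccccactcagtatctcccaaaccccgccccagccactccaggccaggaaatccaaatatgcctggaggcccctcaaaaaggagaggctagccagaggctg
Il3, chr11:54267280-54267529, minus strand: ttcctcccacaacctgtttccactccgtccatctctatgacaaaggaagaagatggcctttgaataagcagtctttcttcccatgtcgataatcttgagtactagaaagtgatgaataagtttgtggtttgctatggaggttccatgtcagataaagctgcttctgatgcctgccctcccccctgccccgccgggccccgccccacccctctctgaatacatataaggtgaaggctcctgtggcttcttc
The sequence table held an upstream window for Il17a, Il17f, Il21, Csf2 and Il3 among the measured cytokine genes. AGGTCA occurred on either strand in those of Il17a, starting 120 bases before the start on the opposite strand, and of Il17f, 58 bases before the start on the gene's strand. It occurred in 14% of 32851 upstream windows of the same length. The STAT letters TTCNNNGAA (in 7.02% of windows) were in none of the 5 windows, and the AP-1 letters TGANTCA (in 6.75%) were in that of Il17a, 244 bases before its start. The motifs searched do not overlap in these windows. A match describes the letters in this stretch and does not show binding.

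Il17a and Il17f lie next to each other in the genome and encode the cytokines that give Th17 cells their name. In SRC-3-deficient cells the log2 signal of Il17a was 9.06 and 9.14, against 10.39 and 10.02 in wild-type cells. In RORγt-deficient cells it was 7.52 and 7.16, against 11.63 and 11.27. Both deficient pairs lay below their wild-type pairs with no overlap, and the RORγt-deficient arrays were the lowest of all 8 and the sole ones below the filter value. Il17f gave 10.66 and 10.75 without SRC-3 beside 11.93 and 11.54, and 8.95 and 9.07 without RORγt beside 12.47 and 12.27. The order of the 4 groups was the same for both genes, from RORγt wild type through SRC-3 wild type and SRC-3-deficient to RORγt-deficient. Neighbours in this order did not overlap, but levels were not tested across the experiments.

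**Figure D1:**
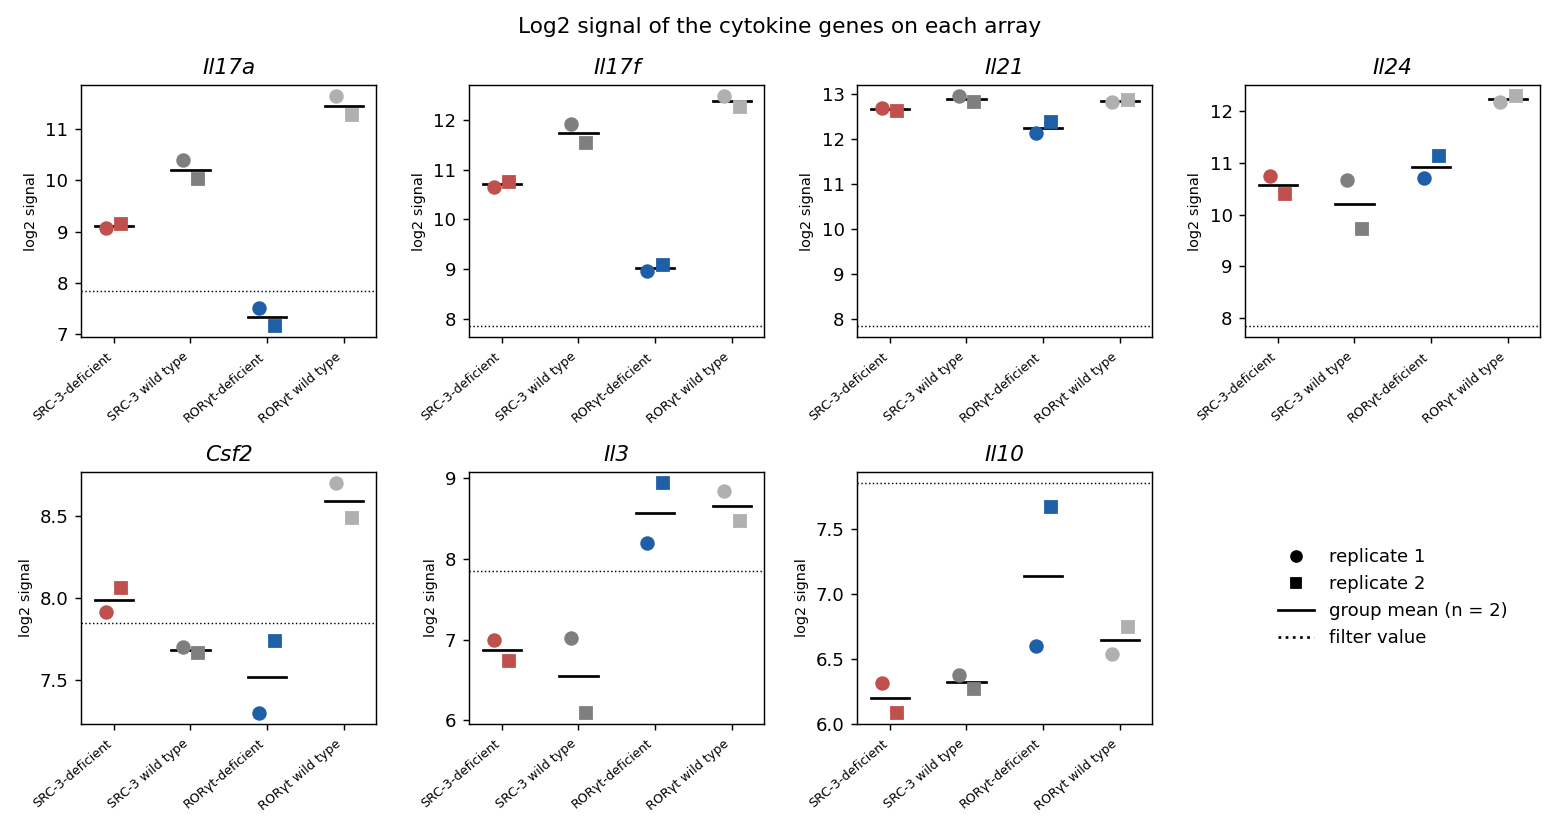
Log2 signal (vertical axes, a separate scale for each gene) of the 7 cytokine genes on each of the 8 arrays, by group, with replicates as circles and squares, group means as bars (n = 2) and the filter value of 7.85 as a dotted line. Il17a and Il17f are lower on both deficient pairs than on their wild types, whereas Il3 separates the experiments and not the genotypes.

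Without SRC-3, the Il17f signal fell to 0.489 of that in wild-type cells, from 11.73 ± 0.27 to 10.70 ± 0.06 (SD, n = 2; log2 fold change −1.03, SE 0.13, limma adjusted p = 0.0347). Of the 7 measured cytokine genes it was the only one called in this comparison, where 0.225% of all 11128 genes tested were called, 0.0359% lower and 0.189% higher. Il17a differed by a like amount, 10.20 ± 0.26 in wild-type and 9.10 ± 0.06 in deficient cells (SD, n = 2), but missed the threshold (log2 fold change −1.10, SE 0.17, limma adjusted p = 0.0567; 95% interval −1.50 to −0.70, not adjusted). Il17a passed in 2 of 19 alternative fits. These were an intensity trend with robust prior (limma adjusted p = 0.048) and a block for the replicate numbers, which no label calls pairs (limma adjusted p = 0.00671). It missed the threshold in the other 17, among them the 4 SRC-3 arrays alone (limma adjusted p = 0.226) and array weights (0.172). By log2 fold change Il17a and Il17f had ranks 2 and 4 from the lowest among the genes tested. Il17f missed the threshold when the 4 SRC-3 arrays were fitted alone (limma adjusted p = 0.267) and with array weights (0.0704). It missed it too when 1 array was left out, unless that array was replicate 1 of the SRC-3 wild type, with limma adjusted p between 0.0507 (without SRC-3 wild-type replicate 2) and 0.141 (without SRC-3-deficient replicate 1), while the fold change stayed between −1.22 and −0.84.

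Without RORγt, Il17a fell 17.3-fold, from 11.45 ± 0.25 to 7.34 ± 0.25 (SD, n = 2; log2 fold change −4.11, SE 0.17, limma adjusted p = 4.86e-05). Because both deficient arrays lay below the filter value, the size of that fall is uncertain. Il17f fell 10.3-fold, from 12.37 ± 0.14 to 9.01 ± 0.08 (SD, n = 2; −3.36, SE 0.13, limma adjusted p = 4.86e-05). With 5 of the 7 cytokine genes called lower, 19.4% of all genes were called in this comparison, 9.37% lower. Only Xist, which differs with the sex of the mice, had a lower log2 fold change than Il17a. The fold change was larger without RORγt than without SRC-3 by 3.01 for Il17a (SE 0.24, limma adjusted p of the difference = 0.00343) and by 2.33 for Il17f (SE 0.18, limma adjusted p = 0.00325). These were 2 of 3 cytokine genes called for the difference, beside 1.67% of all genes (0.926% in this direction). The 2 experiments differ in more than the gene removed, since each had its own wild type. The sex of the mice also moved with the RORγt genotype, but not fully with the SRC-3 genotype.

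Il21 encodes a cytokine that Th17 cells make and respond to. Its log2 signal was 12.70 and 12.64 without SRC-3 and 12.95 and 12.83 in the matching wild type. Without RORγt it was 12.13 and 12.38, beside 12.83 and 12.87. Both deficient pairs lay below their wild types, and the wild-type pairs of the experiments overlapped. Il21 fell to 0.663 of its level without RORγt (log2 fold change −0.59, SE 0.09, limma adjusted p = 0.00585), a call lost without RORγt wild-type replicate 2 (limma adjusted p = 0.051). It was also lost with a term for the sex of the mice, which moved with the RORγt genotype (−0.65, limma adjusted p = 0.0929). Without SRC-3 the change was −0.22 (SE 0.09, limma adjusted p = 0.363), and the changes in the 2 comparisons were not told apart (difference 0.37, SE 0.13, limma adjusted p = 0.203).

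Csf2 encodes GM-CSF, which T cells need to provoke inflammation in several models of autoimmunity. Its signal was low on every array: 7.92 and 8.06 without SRC-3 and 7.70 and 7.67 in the wild type, then 7.30 and 7.74 without RORγt and 8.70 and 8.49 in the wild type. It reached the filter value on 4 arrays, the SRC-3-deficient and the RORγt wild-type pairs. Csf2 fell to 0.475 without RORγt (log2 fold change −1.07, SE 0.14, limma adjusted p = 0.00369), a call lost with the sex term (−0.93, limma adjusted p = 0.108). Without SRC-3 both deficient arrays lay above both wild-type arrays, and the change of 0.31 missed the threshold (SE 0.14, limma adjusted p = 0.418; 95% interval −0.02 to 0.63, not adjusted). The difference between the comparisons was 1.38 (SE 0.20, limma adjusted p = 0.0228). That call was lost without SRC-3-deficient replicate 2, SRC-3 wild-type replicate 2, RORγt-deficient replicate 1 or either RORγt wild-type replicate, with limma adjusted p between 0.0543 and 0.117 and values between 1.16 and 1.49.

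Il24 encodes a cytokine of the IL-10 family that acts on epithelial cells. In the SRC-3 experiment it gave 10.74 and 10.40 in deficient and 10.68 and 9.73 in wild-type cells, which overlapped. In the RORγt experiment it gave 10.70 and 11.13 in deficient and 12.18 and 12.28 in wild-type cells. Il24 fell to 0.402 without RORγt (log2 fold change −1.32, SE 0.29, limma adjusted p = 0.0195). The call was lost without RORγt-deficient replicate 1 (limma adjusted p = 0.129) or RORγt wild-type replicate 1 (0.0926) or 2 (0.114), and with the sex term (−1.66, limma adjusted p = 0.128). Without SRC-3 the value was 0.37 (SE 0.29, limma adjusted p = 0.68), and −0.11 without SRC-3 wild-type replicate 2, the lowest of the 8 arrays for this gene. The difference of the comparisons was 1.68 (SE 0.41, limma adjusted p = 0.0944). It passed without SRC-3 wild-type replicate 1 (2.15, limma adjusted p = 0.0122).

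Il3 encodes a growth factor for haematopoietic progenitors, mast cells and basophils, and lies beside Csf2. Its log2 signal was 6.997 and 6.74 without SRC-3 and 7.02 and 6.10 in the wild type, all below the filter value. It was 8.20 and 8.94 without RORγt and 8.84 and 8.46 in the wild type. Deficient and wild-type pairs overlapped in both experiments. Neither change was called: 0.31 without SRC-3 (SE 0.33, limma adjusted p = 0.776; 95% interval −0.46 to 1.08) and −0.08 without RORγt (SE 0.33, limma adjusted p = 0.887; 95% interval −0.86 to 0.69). The difference of the comparisons was 0.40 (SE 0.47, limma adjusted p = 0.715).

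Il10 encodes the cytokine by which T cells of several kinds limit inflammation. Its probe set stayed below the filter value on all 8 arrays, so its values come from a fit of all 21789 probe sets without a filter, in which 0.11% were called in the SRC-3 comparison, 8.68% in the RORγt comparison and 0.587% for their difference. It gave 6.31 and 6.09 without SRC-3 beside 6.38 and 6.27, and 6.60 and 7.67 without RORγt beside 6.54 and 6.74. RORγt-deficient replicate 2 was the highest of the 8 arrays, and its partner lay within the wild-type range. The change without RORγt was 0.49 (SE 0.28, limma adjusted p = 0.359), 1.03 without deficient replicate 1 (limma adjusted p = 0.0173) and −0.04 without deficient replicate 2, so 1 array decides it. Without SRC-3 it was −0.12 (SE 0.28, limma adjusted p = 0.941), and the difference of the comparisons was −0.62 (SE 0.39, limma adjusted p = 0.595).

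**Figure D2:**
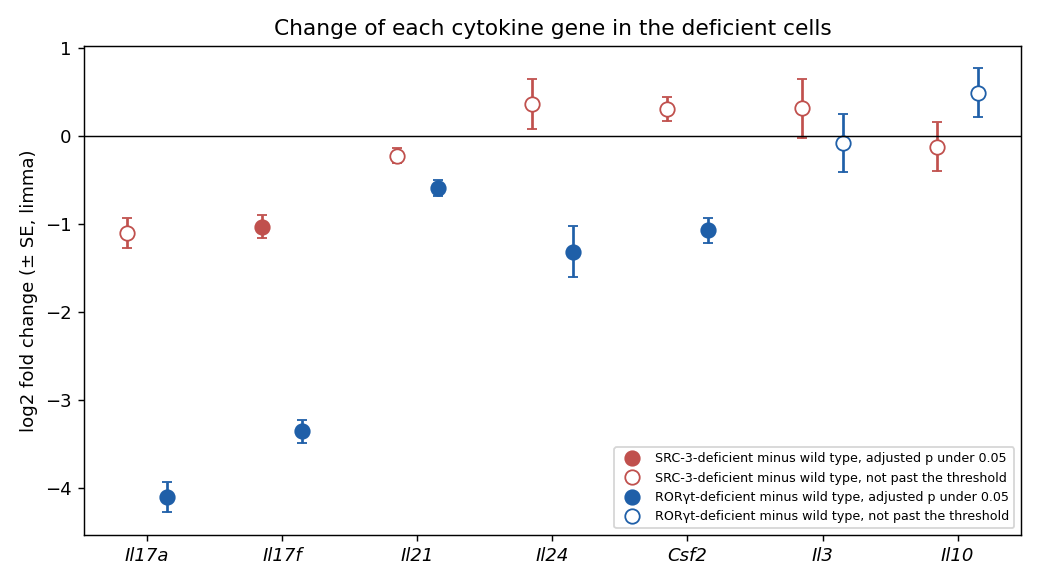
Log2 fold change (vertical axis, ± SE of the limma fit, n = 2 per group) of each cytokine gene in SRC-3-deficient (red) and RORγt-deficient (blue) cells against the wild type of their own experiment, filled where the adjusted p was under 0.05. Filled points are Il17f alone in red, and Il17a, Il17f, Il21, Il24 and Csf2 in blue.

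Counted together, the groups did not overlap for 4 of the 7 genes in the SRC-3 comparison, 3 of them (Il17a, Il17f and Il21) lower and Csf2 higher in deficient cells. Of all genes tested, 37.2% did not overlap there, and 14.3% were lower without overlap. In the RORγt comparison 5 of the 7 were lower without overlap, beside 34.2% of all genes (70% in either direction). The median log2 fold change of the 7 was −0.12 without SRC-3 and −1.07 without RORγt, against 0.02 and 0.00 over all genes tested. The −0.12 is the value of Il10, which did not pass the filter and is not among the genes tested. Among the others, Il17a (−1.10), Il17f (−1.03) and Il21 (−0.22) lay below 0 without SRC-3. Il24 (0.37), Csf2 (0.31) and Il3 (0.31) lay above it. Of the 7, 6 passed the filter, reaching its value on 8 arrays (Il17f, Il21 and Il24), 6 arrays (Il17a) or 4 arrays (Csf2 and Il3), and Il10 on 0.

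**Figure D3:**
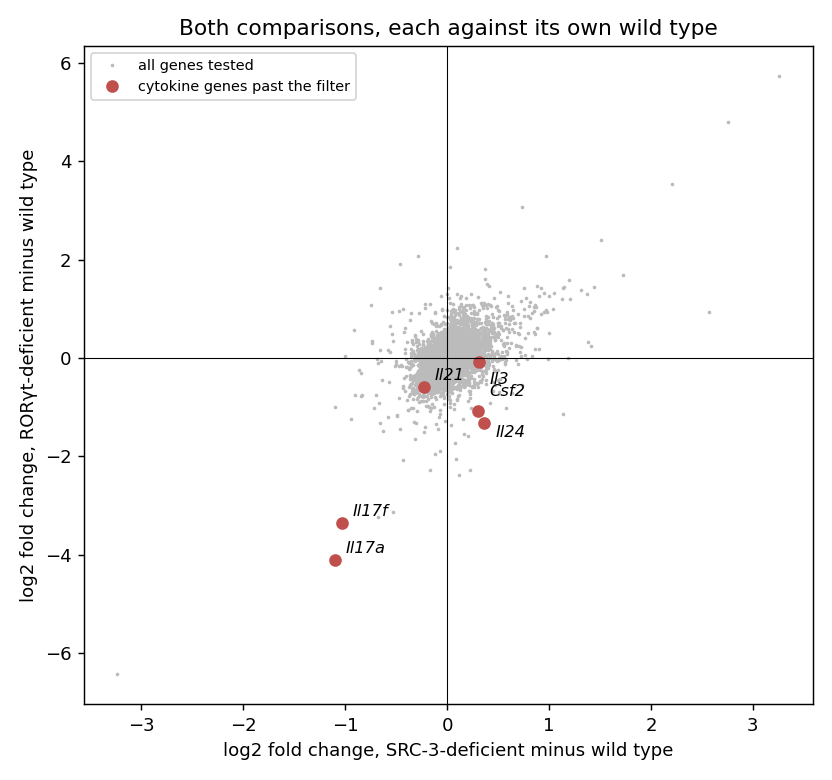
Log2 fold change without RORγt (vertical axis) against that without SRC-3 (horizontal axis) for all 11128 genes tested (grey) and the 6 cytokine genes that passed the filter (red), each comparison against its own 2 wild-type arrays. Il17a and Il17f lie far down on the left, Il24 and Csf2 below 0 on the vertical and above 0 on the horizontal axis, and Il3 at 0.31 on the horizontal and −0.08 on the vertical axis.

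The sex of the mice moved with the RORγt genotype. Xist, the RNA of the inactive X chromosome, gave 6.37 and 6.08 without RORγt against 12.55 and 12.76 in the wild type. In the SRC-3 experiment it was 7.10 on deficient replicate 1 and between 13.52 and 13.65 on the other arrays, so the effect of sex could be fitted only from that deficient pair. With a sex term the fall without RORγt was −4.03 for Il17a (limma adjusted p = 0.00889) and −3.27 for Il17f (limma adjusted p = 0.00733). The calls of Il21, Il24 and Csf2 in that comparison were lost. In the SRC-3 comparison the sex term leaves deficient replicate 2 alone to be set against the wild type, and Il17f gave −0.99 (limma adjusted p = 0.141).

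The cytokine genes lie at 4 places in the genome, and 26 other genes stand within 3 measured genes of them. None of these neighbours was called without SRC-3 by limma, with log2 fold changes between −0.40 and 0.39. Without RORγt, 4 neighbours fell and 0 rose, beside 9.37% of all genes called lower and 10% called higher, with changes between −0.54 and 0.20. The 4 that fell passed the filter. Many other neighbours did not and lie outside that background. They were read from the fit without the filter, in which 8.68% were called in either direction. Mcm3, a subunit of the replicative helicase and the gene next to Il17f, gave −0.18 (limma adjusted p = 0.294) without RORγt and −0.40 (limma adjusted p = 0.192) without SRC-3. Il2, the T cell growth factor gene beside Il21, gave −0.22 (limma adjusted p = 0.464) and 0.39 (limma adjusted p = 0.463).

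Between Il24 and Il10 lie Il20 and Il19, 2 further genes of the IL-10 family, which did not pass the filter and gave, in the fit without it, −0.04 and 0.01 without RORγt (limma adjusted p = 0.794 and 0.95). On either side of this cluster, Fcmr, an IgM receptor gene (−0.35, limma adjusted p = 0.018), Mapkapk2, a kinase gene of the p38 pathway (−0.44, limma adjusted p = 0.00777), and Dyrk3 (−0.48, limma adjusted p = 0.0061) fell. P4ha2, a prolyl hydroxylase gene on the far side of Csf2 from Il3, fell by 0.54 on the log2 scale (limma adjusted p = 0.00904), while the Il3 side held no call.

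**Figure D4:**
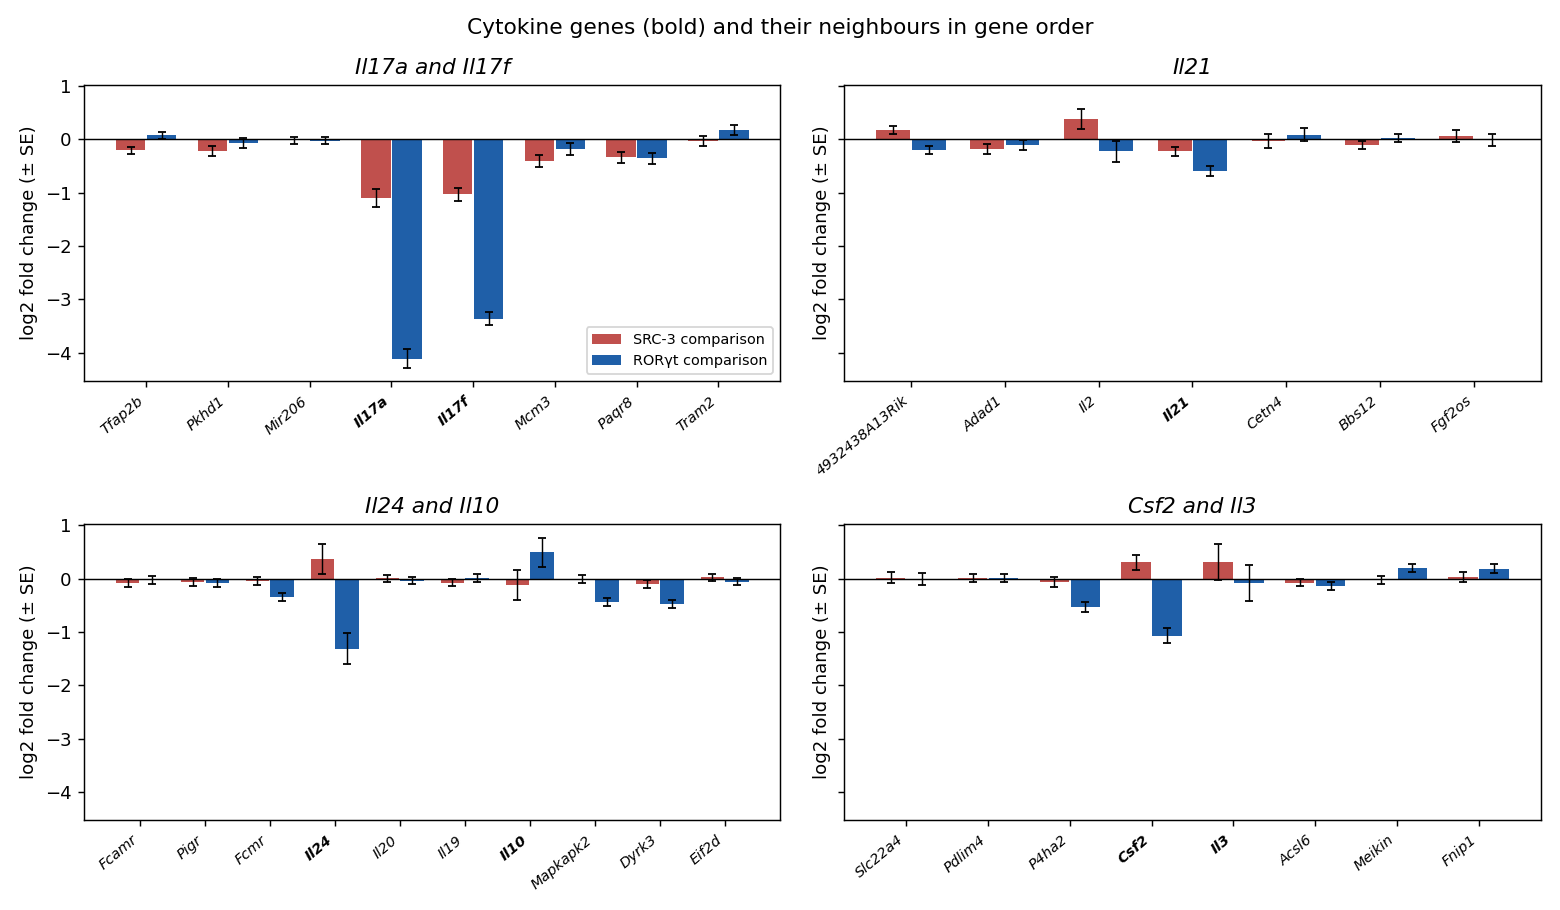
Log2 fold change (bars, ± SE of the limma fit) of the cytokine genes (bold) and up to 3 measured genes on either side, in gene order and not to distance, in the SRC-3 (red) and RORγt (blue) comparisons. The bars of Il17a and Il17f reach −4.11 and −3.36 in blue, beside neighbours that all lie between −0.54 and 0.20.

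By the pattern over the 8 arrays, after each experiment was centred on its mean, the genes most like Il17a were Spire1 (Pearson r = 0.996), Lrpprc (0.996), Il17f (0.996), Ahsa1 (0.994), Il23r (0.993) and Dnaja3 (0.993). This likeness ignores the size of the change. Il23r, the receptor gene through which IL-23 maintains Th17 cells, gave −3.23 without RORγt, whereas Ahsa1, a cochaperone gene, gave −0.28. Among the other cytokine genes r with Il17a was 0.934 for Il21, 0.807 for Csf2, 0.756 for Il24 and 0.0242 for Il3. A high r did not mean a like direction in both experiments. Without SRC-3, Il17a gave −1.10 and Il21 −0.22, but Csf2 gave 0.31, Il24 0.37 and Il3 0.31. Closest to Csf2 were Alkbh6 (0.994), Rnf24 (0.99) and Tmbim1 (0.984). The points share their arrays and, within an experiment, their genotypes.

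Among 32 other measured genes of T cell cytokines and chemokines, none was called without SRC-3 by limma, beside 0.225% of all genes. Without RORγt 4 rose, 4 fell and 24 were not called, with a median log2 fold change of −0.05 (all genes 0.00). Of the 32, 21 passed the filter and belong to the fit in which 19.4% of all genes were called (10% higher, 9.37% lower). The rest were read from the fit without it, in which 8.68% were called. The calls come from both fits and have no single background, so the genes named are a description. Those that fell were Lif (−1.17, limma adjusted p = 0.0242), a cytokine of the IL-6 family, Ebi3 (−0.99, limma adjusted p = 0.00116), a subunit of IL-27 and IL-35, Lta, the lymphotoxin gene (−0.66, limma adjusted p = 0.00342), and the chemokine gene Ccl5 (−0.66, limma adjusted p = 0.0299). Those that rose were Ccl20, whose product attracts CCR6-bearing cells (0.75, limma adjusted p = 0.0335), Ifng, the Th1 cytokine gene (0.57, limma adjusted p = 0.015), Xcl1 (0.47, limma adjusted p = 0.025) and the Th2 cytokine gene Il13 (0.34, limma adjusted p = 0.00976). Ifng and Xcl1 did not pass the filter and were read from the fit without it. Lta, like Csf2, lay on opposite sides of its wild type in the comparisons, 0.45 without SRC-3 (limma adjusted p = 0.0864) and −0.66 without RORγt, a difference of 1.11 (limma adjusted p = 0.00987). Ebi3 was the other of 2 genes called for the difference (0.86, limma adjusted p = 0.0244), beside 0.926% of all genes called in this direction.

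Of 16 measured genes for the receptors of these cytokines, 2 rose and 1 fell without RORγt, beside 19.4% of all genes called in either direction, and none was called without SRC-3 by limma. Of the 16, 10 passed the filter. The rest were read from the fit without it, in which 8.68% were called in the RORγt comparison. Il17ra, the shared chain of the receptors for IL-17A and IL-17F, had log2 signals of 11.90 and 11.79 without RORγt beside 10.91 and 10.86, and rose (0.96, SE 0.07, limma adjusted p = 0.000633). Without SRC-3 it gave 10.90 and 10.89 beside 10.66 and 10.83 (0.15, limma adjusted p = 0.459), and the difference of the comparisons was −0.81 (limma adjusted p = 0.0173). Il10rb, a chain of the receptors for IL-10 and IL-22, rose by 0.41 (limma adjusted p = 0.0304), and Il17re, the receptor chain for IL-17C, fell by 0.54 on the log2 scale (limma adjusted p = 0.00519).

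Of 34 measured genes that encode regulators of these cytokine genes, Maf alone was called without SRC-3 (−0.68, limma adjusted p = 0.0198), beside 0.225% of all genes. The product of Maf is a transcription factor known to promote Il10 and Il21. These gave −0.12 and −0.22 without SRC-3, and neither was called (limma adjusted p = 0.941 and 0.363). Il10 did not pass the filter, and a link of Maf to either value was not tested. Without RORγt 8 of the 34 rose and 2 fell, with a median of 0.10, beside 10% of all genes called higher and 9.37% called lower. The rises were led by Il6st, the shared signalling chain of the IL-6 receptor (1.08, limma adjusted p = 0.000216), Klf2, a factor of T cell quiescence (1.43, limma adjusted p = 0.000317), Ahr, the aryl hydrocarbon receptor gene (1.43, limma adjusted p = 0.000485), and Il6ra, which binds IL-6 (0.62, limma adjusted p = 0.00428). Gata3, which directs Th2 cells (0.86, limma adjusted p = 0.0138), and Stat4, which relays IL-12 signals (0.45, limma adjusted p = 0.015), rose as well. Il23r and Bhlhe40, a factor that supports Csf2 expression (−0.65, limma adjusted p = 0.00151), were the genes that fell. Over all genes, 0.926% were called positive and 0.746% negative for the difference of the comparisons. Of the 34, 2 were called positive, Il23r (2.55, limma adjusted p = 0.00325) and Bhlhe40 (0.65, limma adjusted p = 0.0203), and 4 negative, the targeted gene Ncoa3 among them. Of these 4, Ahr gave −0.66 without SRC-3 (limma adjusted p = 0.0567) beside its rise without RORγt, a difference of −2.09 (limma adjusted p = 0.00293). The others were Klf2 (−1.42, limma adjusted p = 0.00475), Il6st (−0.86, limma adjusted p = 0.0079) and Ncoa3 itself (−0.76, limma adjusted p = 0.0394).

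**Figure D5:**
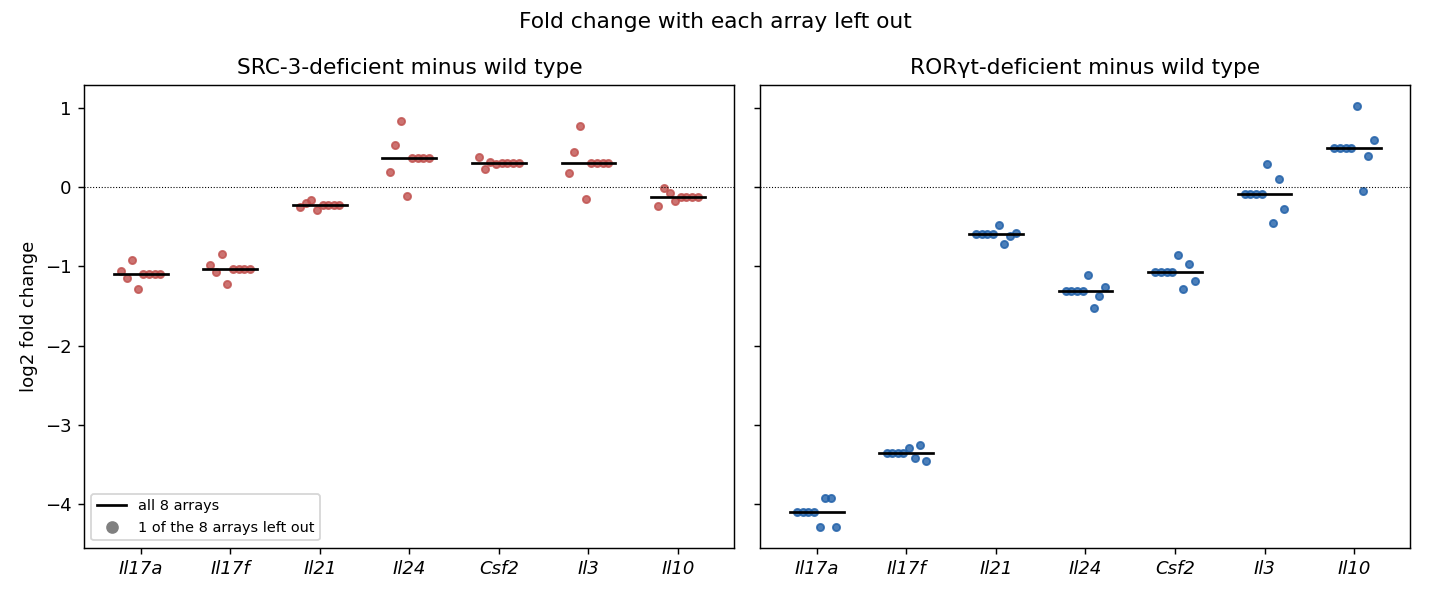
Log2 fold change (vertical axis) of each cytokine gene with all 8 arrays (bar) and with each of the 8 arrays left out in turn (points), in the SRC-3 and RORγt comparisons. Il17a stays between −1.29 and −0.91 without SRC-3 and between −4.29 and −3.93 without RORγt, whereas the points of Il24 and Il3 without SRC-3 and of Il3 and Il10 without RORγt lie on both sides of 0.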

How the data were processed

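Total RNA from 8 mouse T cell samples was read on Affymetrix gene arrays, 1 array per sample. Per the submitters' processing notes, the deposited log2 values were made with RMA in Affymetrix Expression Console (background correction, quantile normalization, 1 value per probe set), with no version given in the sources used here. The values, between 3.50 and 15.03, were used without a new normalization. Of 35556 probe sets, 21789 had 1 symbol, 1621 several and 12146 none in the platform's gene table. Probe sets with 1 symbol that reached 7.85 on 2 or more arrays entered the test, the brightest standing for its gene, which left 11128 genes. Group means of all 8 arrays were fitted with limma 3.58.1 in R 4.3.3, with 4 residual and 3.53 prior degrees of freedom and Benjamini-Hochberg adjustment over all genes, two-sided. The number of arrays limits precision: an exact permutation test of 2 against 2 cannot go below p = 0.333. The fit was tested on simulated data. The cytokine genes, the further lists and the rules for naming genes were chosen with earlier results of these data known. All cytokine genes are named, and from each further list up to 8 genes called per comparison by smallest p. Neighbours are the 3 nearest measured genes on either side in the RefSeq order of GRCm38.p6, and the genes most like Il17a (6) and Csf2 (3) are those of highest Pearson r. Mcm3, Il2, Il20 and Il19 were singled out among the neighbours after their values were seen. Some genes are not reported here. Alternatives were other normalizations, filters, probe set rules, variance models, array weights, a replicate block, a sex term from Xist (arrays under 10 taken as male), other thresholds and leaving out each array.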

Additional observations from a re-analysis of the deposited data

Results flagged for a closer look

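The change differed between the 2 experiments for 3 of the 7 cytokine genes, by a test of the difference itself in limma, which called 1.67% of all genes tested. The sex of the mice moved with the RORγt genotype but not fully with the SRC-3 genotype, so the contrast is not one of genotype alone. For Il17a the log2 fold change was −1.10 without SRC-3 and −4.11 without RORγt, a difference of 3.01 (limma adjusted p = 0.00343, between 0.000383 and 0.0317 over 18 alternatives). For Il17f it was −1.03 and −3.36, a difference of 2.33 (limma adjusted p = 0.00325, between 0.0014 and 0.0317 over 18 alternatives). In both experiments both deficient arrays lay below both wild-type arrays for these genes. For Csf2 the log2 fold change was 0.31, not called (limma adjusted p = 0.418), and −1.07, a difference of 1.38 (limma adjusted p = 0.0228). That call was lost in 6 of 18 alternatives, which were not all distinct. The sex term and leaving out SRC-3-deficient replicate 2 gave the same difference (1.31). Under the stricter filter Csf2 did not pass and was read from the fit without a filter. Both deficient arrays lay above their wild types in the SRC-3 experiment and below them in the other. Of all genes, 37.2% and 70% did not overlap there. Csf2 passed the filter only through the SRC-3-deficient and RORγt wild-type pairs, the higher pair of each experiment. Without the filter the difference was called as well (limma adjusted p = 0.0221).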

How the results depend on the processing

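Every fold change of Il17a, Il17f, Il21 and Csf2 kept its direction under all alternatives run, and the RORγt calls of Il17a and Il17f kept their side of the threshold. For the 2 comparisons the kept direction is no separate evidence. Filters, probe set rules, variance models, weights and the replicate block do not move these fold changes. The pairs of these genes do not overlap in either comparison, so leaving out 1 array could not turn the sign. Of the uncalled values, leaving out 1 array at a time put the SRC-3 value of Il24 between −0.107 and 0.837, that of Il3 between −0.149 and 0.772 and the difference for Il3 between −0.0645 and 0.857, the sign turning without SRC-3 wild-type replicate 2. The RORγt value of Il3 lay between −0.457 and 0.288, turning without deficient or wild-type replicate 1 (0.10), and that of Il10 between −0.0431 and 1.03, turning without deficient replicate 2. Leaving out 1 array gave 0 to 1 called cytokine genes without SRC-3, 3 to 5 without RORγt and 2 to 4 for the difference. Over all genes it gave 0 to 61 (limma, 1457 at an unadjusted p under 0.05 where 0), 486 to 2539 and 15 to 264, against 25, 2157 and 186. In the SRC-3 comparison cytokine calls numbered 0 with its 4 arrays alone (limma, 4 at an unadjusted p under 0.05), with array weights (2), with a sex term (2) and at an adjusted p of 0.01 (3), and 2, Il17a and Il17f, at 0.1, with an intensity trend and with the replicate block. Calls over all genes there were 0 with 4 arrays (limma, 827 unadjusted), 0 at 0.01 (1394 unadjusted), 129 at 0.1, 14 with a stricter filter at 9.78, 47 with the trend, 10 with weights and 10 with the sex term. In the RORγt comparison they were 749 at 0.01, 3389 with 4 arrays, 3679 with weights and 95 with the sex term, which left 2 cytokine genes, Il17a and Il17f. For the difference they were 470 at 0.1, 24 at 0.01, 119 with the stricter filter and 60 with the sex term. The causes were not tested. The replicate numbers, which no label calls pairs, were checked across genes: deviations of same-numbered arrays correlated with r = 0.536 in the SRC-3 and 0.00174 in the RORγt experiment. With the replicate block limma called 301, 3411 and 945 genes, and Il17a passed in the SRC-3 comparison (adjusted p = 0.00671) and Il24 in the difference (adjusted p = 0.0079). Signal near background limits Il10, Il3, Csf2 and the RORγt-deficient level of Il17a.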

Other observations

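The wild-type cells of the experiments, cultured under the same label, differed in the level of several cytokine genes, and experiment and any difference between the mice cannot be told apart. The log2 signal of Il3 was 7.02 and 6.10 on the SRC-3 wild-type arrays and 8.84 and 8.46 on the RORγt wild-type arrays, that of Il24 10.68 and 9.73 against 12.18 and 12.28, and that of Csf2 7.70 and 7.67 against 8.70 and 8.49. Il17a gave 10.39 and 10.02 against 11.63 and 11.27. Il21 overlapped, with 12.95 and 12.83 against 12.83 and 12.87. The Il24 level of the RORγt-deficient arrays, 10.70 and 11.13, overlapped that of the SRC-3-deficient arrays, 10.74 and 10.40. No test was made across the experiments.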
